A study of Bos taurus with 12 samples.

Results

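The 10 genes described here hold a mammalian oocyte in prophase of meiosis or release it by activating the kinase CDK1: GPR3, PDE3A, WEE1, WEE2, PKMYT1, CDC25A, CDC25B, CDC25C, ENSA and ARPP19. They were taken by symbol from the 16675 genes of the deposited expression table, where all 10 were present, and their m6A peaks were taken by Ensembl gene identifier. The samples were bovine oocytes cultured in vitro, at metaphase of the second meiotic division (MII) or at the germinal vesicle stage (GV), which is the prophase arrest itself. The labels give no strain, animal age, treatment or culture time. They do not tell whether the replicates are different animals or cultures. The p-values of the expression tests and of the ratios therefore reflect the scatter among libraries, possibly only technical scatter. The p-values of peaks are the authors', and how they treat the replicates is not stated. Poly(A) RNA of each stage went into 3 input libraries and 3 libraries immunoprecipitated with an antibody against N6-methyladenosine (m6A), a methyl mark on adenosines of messenger RNA. Expression is given as FPKM (fragments scaled to transcript length and to the fragments of the library) in the 6 input libraries, and m6A as 1 list of peaks per stage and 1 table of differential peaks.

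In mammalian oocytes the prophase arrest rests on cyclic AMP. Receptors of the GPR3 type keep adenylyl cyclase on, cyclic AMP keeps protein kinase A on, and PDE3A is the oocyte phosphodiesterase that breaks cyclic AMP down when the arrest ends. CDK1 with cyclin B is the kinase that starts the divisions, and it is held off by inhibitory phosphates that the kinases WEE1, WEE2 and PKMYT1 put on and the CDC25 phosphatases take off. ENSA and ARPP19 are small proteins that, once phosphorylated by the Greatwall kinase MASTL, inhibit the phosphatase PP2A and so protect the substrates of CDK1.

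The libraries held oocyte RNA by their markers. All 15 oocyte markers were above 0 in every input library, with sums of 5203 to 5546 FPKM in MII and 4729 to 4817 FPKM in GV libraries, and BTG4 was the highest. Of 24 cumulus and granulosa cell markers 16 had a row, summing to 216.6 to 223.0 FPKM in MII and 225.8 to 238.4 FPKM in GV libraries. Most of that was STAR, at a mean of 167.2 FPKM in MII and 149.1 FPKM in GV, while the table gave 0 FPKM for INHA and FSHR throughout MII and for HSD3B1 and PTX3 throughout GV. Of the 9 cumulus and granulosa markers tested, 3 were called higher in MII (STAR, CLU and GREM1) and 5 lower (VIM, PTGS2, HAS2, VCAN and GJA1). Over all genes tested, 32% were called higher in MII and 28.8% lower. CLU was at a mean of 6.48 FPKM in MII against 2.25 FPKM in GV, and GREM1 at 5.73 against 2.39 FPKM. VIM, a marker of somatic cells, was at 0.997, 0.289 and 0 FPKM in MII against 5.60, 6.08 and 7.25 FPKM in GV libraries. It passed the filter at a mean of 1 FPKM only through its GV level. The part of somatic RNA in the results below was not tested. The 5 theca, blood and immune markers with a row summed to 38.2 to 39.0 FPKM in MII and 31.2 to 33.1 FPKM in GV. The files give no read counts, and the spacing of low values implied 2.88 to 4.61 gigabases of sequence in MII and 3.53 to 3.56 gigabases in GV input libraries, as an estimate. Of the 16675 genes, 1485, 1282 and 1727 were listed at 0 FPKM in MII input libraries 1, 2 and 3. In GV input libraries 1, 2 and 3 these were 3765, 3722 and 3733 genes. The part of this difference between stages in the changes of low genes was not tested.

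The phosphatase genes CDC25A and CDC25B, the PP2A inhibitor genes ENSA and ARPP19 and the receptor gene GPR3 were higher in MII, and the kinase gene WEE2 was lower. CDC25C, PDE3A and PKMYT1 made no call. Of the 10 genes 9 passed a filter at a mean of 1 FPKM over the 6 input libraries, and limma on log2(FPKM + 1) with Benjamini-Hochberg adjustment over 11739 genes called 5 of them higher and 1 lower at an adjusted p of 0.05. Over all genes tested, 32% were called higher and 28.8% lower. The median change of the 9 genes was 0.48 on the log2 scale, against 0.013 for all genes tested. These were bulk libraries, so fewer cells of a type and less RNA per cell cannot be told apart, and an FPKM value is a share of its library. RNA was bound to oligo(dT) beads, so a change in the amount of a transcript and a change in the part the beads held cannot be told apart.

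Levels spanned a wide range, and FPKM, being per length, allows genes to be ranked by the RNA the beads held. Whether the beads held the same part of each gene's RNA was not tested. In MII the order by mean level was WEE2, ENSA, CDC25A, CDC25C, CDC25B, ARPP19, PDE3A, PKMYT1, GPR3 and WEE1. In GV it was WEE2, CDC25C, ENSA, CDC25A, CDC25B, PDE3A, ARPP19, PKMYT1, GPR3 and WEE1. Neighbours whose libraries overlapped were ARPP19 with PDE3A and PKMYT1 with GPR3 in MII, and GPR3 with WEE1 in GV. WEE2 stood far above the others, 4.30 times the level of the next gene in MII and 7.56 times in GV, and above 99.4% of all tested genes in MII and 99.5% in GV.

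**Figure D1:**
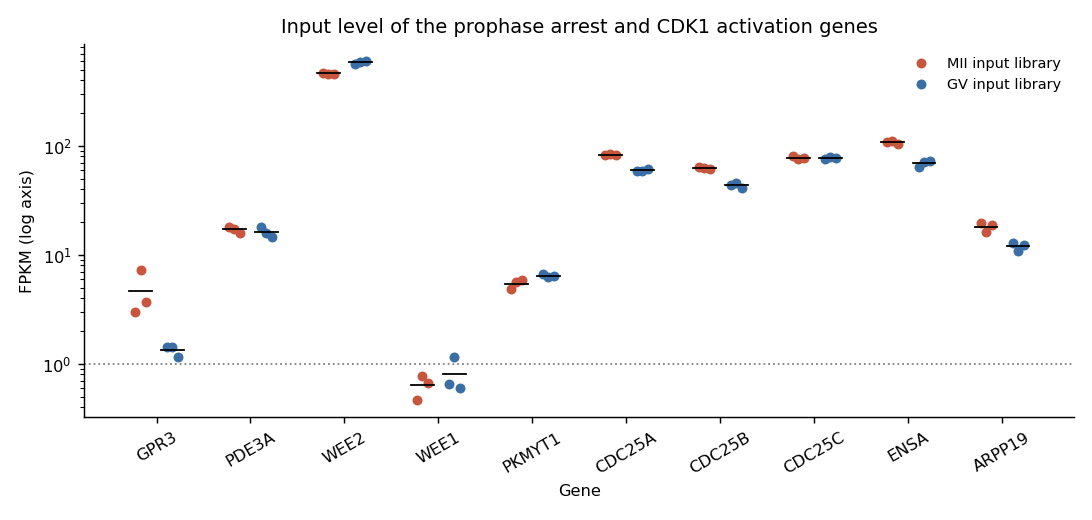
FPKM of the 10 genes on a log axis, with 1 point per input library, MII left of GV, a black line at each stage's mean of 3 libraries and a dotted line at 1 FPKM. The MII points lie above all GV points for GPR3, CDC25A, CDC25B, ENSA and ARPP19 and below them for WEE2 and PKMYT1, and the stages overlap for PDE3A, WEE1 and CDC25C. Over all tested genes the MII libraries lay above all GV libraries for 34.9% and below them for 32.3%.

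On the cyclic AMP side, GPR3 changed and PDE3A made no call. GPR3 (ENSBTAG00000002505, chromosome 2, 125893878 to 125894870, minus strand) codes for a receptor that signals without a ligand and is required for the arrest in mouse oocytes. Its level was 3.00, 7.19 and 3.66 FPKM in MII libraries 1, 2 and 3, against 1.42, 1.41 and 1.14 FPKM in GV libraries 1, 2 and 3. MII library 2 stood apart from the others. All 3 MII libraries were above every GV library, as for 34.9% of all tested genes. The mean was 4.62 ± 2.25 FPKM in MII and 1.32 ± 0.156 FPKM in GV (SD, n = 3 each), a change of 1.20 on the log2(FPKM + 1) scale (SE 0.26; limma adjusted p = 0.0048), and the ratio of the means was 3.49. The log2(FPKM + 1) scale understates changes of a gene this low. The estimated depth puts its signal at the equivalent of 57.3, 163.7 and 111.7 reads of 150 bases in MII libraries and 33.4, 33.0 and 26.9 in GV libraries over its 993 bp, so its level rests on few reads. Without MII library 2 or any other single library, GPR3 was still called higher, with log2 changes of 0.90 to 1.63 over 14 alternatives.

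PDE3A (ENSBTAG00000017260, chromosome 5, 89133571 to 89283293, minus strand) measured 18.0, 17.3 and 15.9 FPKM in the MII libraries, against 17.9, 15.9 and 14.5 FPKM in the GV libraries. The stages overlapped. Its change was 0.085 on the log2 scale, with a 95% interval of -0.13 to 0.30 (limma adjusted p = 0.45). Within each library PDE3A was 5.996, 2.41 and 4.34 times the level of GPR3 in MII, against 12.6, 11.2 and 12.7 times in GV. These ratios do not change when a library is scaled by a single factor, though quantile normalization can change them. They do not overlap between stages, and neither do the levels of GPR3 alone. An exact permutation test of 3 against 3 libraries gave p = 0.10, the smallest it can give. How often ratios of other gene pairs keep the stages apart was not counted.

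Among the inhibitory kinases, WEE2 made up nearly all of the summed FPKM and was lower in MII. WEE2 (ENSBTAG00000004658, chromosome 4, 104972275 to 104999289, plus strand) is the oocyte form of the WEE1 kinase, which in mouse oocytes keeps CDK1 inhibited during the arrest. Its level was 467.7, 459.9 and 460.3 FPKM in MII libraries 1, 2 and 3, against 563.0, 584.3 and 600.6 FPKM in GV libraries 1, 2 and 3. Every MII library was below every GV library, as for 32.3% of all tested genes. The change was -0.33 on the log2 scale (SE 0.037; limma adjusted p = 0.00019), and the MII mean was 0.794 of the GV mean. WEE2 had the highest FPKM of the kinase genes at both stages, with a mean fraction of 0.987 of the summed FPKM of the 3 kinases in MII and 0.988 in GV.

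WEE1 (ENSBTAG00000005278, chromosome 15, 43077354 to 43091213, minus strand), the kinase of somatic cells, was the lowest of the members by mean at both stages. It measured 0.461, 0.772 and 0.664 FPKM in the MII libraries, against 0.650, 1.14 and 0.598 FPKM in the GV libraries. The stages overlapped, and its mean over the 6 libraries was below the filter. Tested without a filter it had a log2 change of -0.13 (95% interval -0.48 to 0.22; limma adjusted p = 0.47).

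PKMYT1 (ENSBTAG00000004729, chromosome 25, 2380374 to 2391571, minus strand), the membrane-bound inhibitory kinase, lay at the edge of a call. It measured 4.88, 5.63 and 5.81 FPKM in the MII libraries, against 6.61, 6.22 and 6.43 FPKM in the GV libraries. The stages did not overlap, with MII below GV, as for 32.3% of all tested genes. The log2 change was -0.21 (95% interval -0.44 to 0.024; limma adjusted p = 0.11). It passed the threshold as lower in MII when libraries were scaled to the same median (adjusted p = 0.046), after quantile normalization (0.021) and without mitochondrial genes (0.038), out of a range of 0.021 to 0.26 over 15 alternatives.

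The CDC25 phosphatases remove the inhibitory phosphates, and 2 of the 3 genes rose. CDC25B (ENSBTAG00000008436, chromosome 13, 51395118 to 51404718, minus strand), which is required for the restart of meiosis in mouse oocytes, measured 64.2, 62.2 and 61.0 FPKM in the MII libraries, against 43.6, 46.0 and 40.7 FPKM in the GV libraries. All MII libraries were above all GV libraries, as for 34.9% of tested genes. The log2 change was 0.52 (SE 0.055; limma adjusted p = 0.00016).

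CDC25A (ENSBTAG00000009586, chromosome 22, 51693533 to 51717133, plus strand), which acts at several cell cycle transitions, measured 82.1, 83.6 and 83.0 FPKM in the MII libraries, against 58.9, 58.4 and 60.8 FPKM in the GV libraries. The stages were far apart relative to their spread. The log2 change was 0.48 (SE 0.039; limma adjusted p = 4.6e-05), and the MII mean was 1.40 times the GV mean.

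CDC25C (ENSBTAG00000005293, chromosome 7, 49701226 to 49731890, minus strand), which mouse oocytes can do without, measured 79.9, 75.9 and 77.7 FPKM in the MII libraries, against 76.1, 78.4 and 76.8 FPKM in the GV libraries. The stages overlapped, and the log2 change of 0.014 had a 95% interval of -0.079 to 0.11 (limma adjusted p = 0.78). CDC25C was the highest of the 3 phosphatases in every GV library and was below CDC25A in every MII library. Within a library it was 0.973, 0.908 and 0.936 of CDC25A in MII, against 1.29, 1.34 and 1.26 of CDC25A in GV.

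Set against each other within a library, phosphatase messages took a larger part in MII. The summed FPKM of CDC25A, CDC25B and CDC25C was 0.478, 0.475 and 0.475 of the summed FPKM of WEE1, WEE2 and PKMYT1 in MII libraries, against 0.313, 0.309 and 0.293 in GV libraries. The ratio was 1.56 times as high in MII, with no overlap of the libraries (exact permutation test, 2-sided p = 0.10, the smallest that 3 against 3 libraries allow). WEE2 made up a mean fraction of 0.987 of the divisor in MII and 0.988 in GV. The ratio therefore largely restates the changes of WEE2, CDC25A and CDC25B. How often ratios of other genes keep the stages apart was not counted. WEE2 was 7.28, 7.39 and 7.55 times the level of CDC25B in MII, against 12.9, 12.7 and 14.7 times in GV. Levels of RNA say nothing of the activity of these enzymes.

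ENSA and ARPP19, the 2 targets of the Greatwall kinase, both rose. ENSA (ENSBTAG00000007123, chromosome 3, 20098776 to 20104404, plus strand) measured 108.6, 110.0 and 104.0 FPKM in the MII libraries, against 64.3, 70.4 and 72.9 FPKM in the GV libraries. All MII libraries were above all GV libraries, again as for 34.9% of tested genes. The log2 change was 0.63 (SE 0.055; limma adjusted p = 6.3e-05), and the MII mean was 1.55 times the GV mean.

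ARPP19 (ENSBTAG00000011022, chromosome 10, 57819020 to 57834446, plus strand), the close relative of ENSA, measured 19.6, 16.2 and 18.6 FPKM in the MII libraries, against 12.8, 10.8 and 12.2 FPKM in the GV libraries. It did not overlap between stages either. The log2 change was 0.56 (SE 0.097; limma adjusted p = 0.0017), and the MII mean was 1.52 times the GV mean. ENSA kept the higher FPKM, at 5.52, 6.81 and 5.58 times ARPP19 in MII libraries and 5.01, 6.52 and 5.96 times in GV libraries. That ratio overlapped between stages (exact permutation test, 2-sided p = 0.90).

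**Figure D2:**
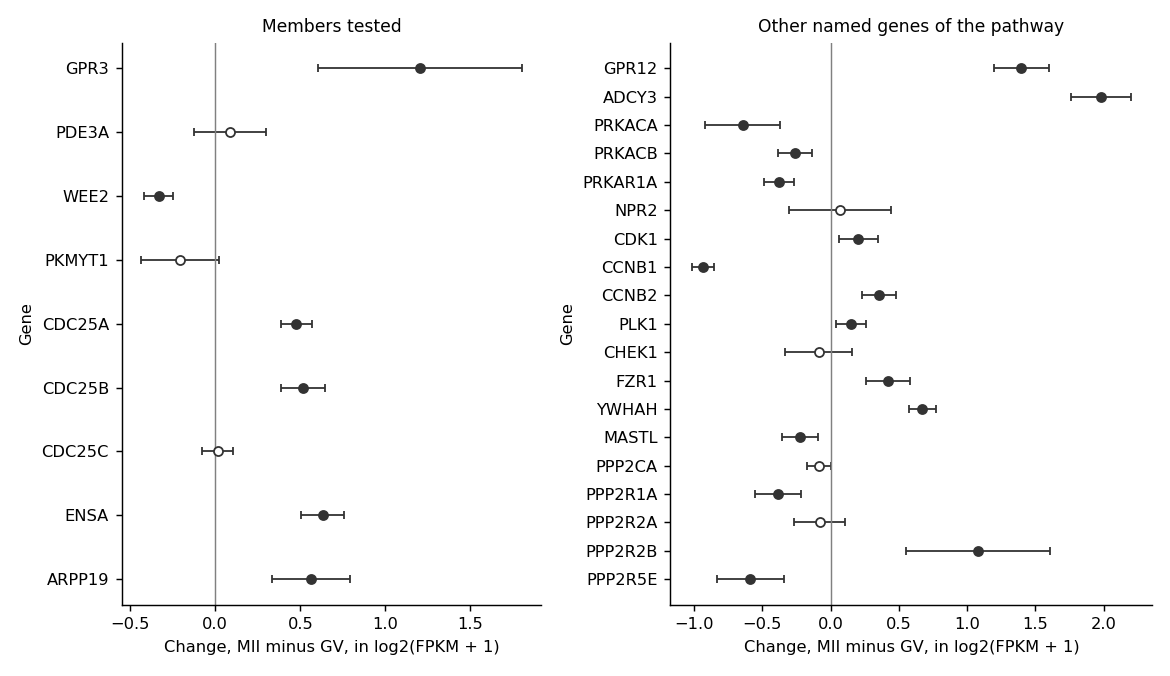
Change of MII minus GV in log2(FPKM + 1) with its 95% interval from limma for the 9 members tested (left) and for 19 other genes of the pathway (right), with filled points for adjusted p under 0.05. GPR3 has the widest interval of the members, from 0.61 to 1.80, and the intervals of PDE3A, PKMYT1 and CDC25C include 0.

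The rest of the pathway was described by 3 lists, which were not tested as sets. Over all genes tested, for comparison, 32% were higher and 28.8% lower in MII, with a median log2 change of 0.013. Of the cyclic AMP and protein kinase A list, 16 of 21 rows were tested, with 5 higher and 5 lower in MII and a median log2 change of 0.041. GPR12, the receptor most like GPR3 and required for the arrest in rat oocytes, was at a mean of 35.3 ± 3.24 FPKM in MII and 12.8 ± 0.972 FPKM in GV (SD, n = 3 each), a log2 change of 1.40 (limma adjusted p = 1.5e-05). GPR12 was thus at a higher level than GPR3 at both stages. The adenylyl cyclase gene ADCY3 had the largest rise of the list on the log2(FPKM + 1) scale, 1.98, with a mean of 13.2 ± 0.357 FPKM in MII against 2.59 ± 0.210 FPKM in GV (SD, n = 3 each). By ratio of means a row of GNAS, named after its values were seen, was further apart, at 7.13 times against 5.08 times for ADCY3. That row passed the filter only through its MII level, with a mean of 1.86 FPKM in MII against 0.262 FPKM in GV. The other row of GNAS had a mean of 14.9 FPKM in MII against 5.68 FPKM in GV, a ratio of 2.63. Of the 4 protein kinase A subunit genes tested 3 fell, PRKACA by 0.64, PRKACB by 0.26 and PRKAR1A by 0.38 on the log2 scale, and PRKACA was the largest fall of the list on that scale. The other tested subunit gene, PRKAR2A, named after its values were seen, had a change of 0.12 and made no call (limma adjusted p = 0.11), and PRKAR1B and PRKAR2B were below the filter. NPR2, the receptor that makes cyclic GMP, which acts in the cumulus cells around mouse oocytes, was at 2.57 ± 0.166 FPKM in MII and 2.44 ± 0.619 FPKM in GV (SD, n = 3 each) and made no call. The list had 3 higher without MII library 2, and 3 lower without GV library 1 or GV library 2.

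Of the list of CDK1, its partners and its feedback, 21 genes were tested, with 10 higher and 3 lower and a median of 0.078. CCNB1, the cyclin B1 gene, had the largest fall, by 0.94 on the log2 scale, with 759.0, 764.7 and 782.0 FPKM in MII libraries against 1456, 1478 and 1478 FPKM in GV libraries. CCNB2 rose by 0.35 and CDK1 by 0.20. The adaptor gene YWHAH, of a family that binds phosphorylated CDC25 proteins, had the largest rise on that scale, 0.67. FZR1, an activator of the anaphase-promoting complex that keeps cyclin B low in the arrest, rose by 0.42. PLK1, a kinase that activates CDC25 proteins, was called at 0.15 (limma adjusted p = 0.029). CHEK1, the checkpoint kinase, made no call at -0.088. Libraries scaled to the same median, or without mitochondrial genes, gave 6 higher genes in place of 10, as did leaving out GV library 2. CDK1 lost its call in 5 of 15 alternatives and PLK1 in 8 of 15, including without GV library 2 (adjusted p = 0.070 and 0.094), without MII library 3 (0.063 and 0.088) and, for PLK1, without GV library 3 (0.069) or MII library 2 (0.078).

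Of the Greatwall, PP2A and PP1 list 12 of 13 rows were tested, with 3 higher and 6 lower and a median of -0.24. MASTL, the Greatwall kinase upstream of ENSA and ARPP19, fell by 0.23 on the log2 scale, to 32.2 ± 1.39 FPKM in MII against 37.9 ± 1.70 FPKM in GV (SD, n = 3 each; limma adjusted p = 0.010). Its sign was opposite to that of its 2 targets. Of the PP2A subunits, the scaffold gene PPP2R1A fell by 0.39 and PPP2R5E by 0.59, the largest fall of the list, on the log2(FPKM + 1) scale. The regulatory subunit gene PPP2R2B had the largest fitted rise, 1.08, but it passed the filter only through its MII level. It was at 2.35, 1.63 and 1.89 FPKM in the MII libraries and at 0, 0.661 and 0.618 FPKM in the GV libraries. It fell below the filter without MII library 1, and its change ran from 0.77 to 2.42 over the 13 alternatives that tested it. PPP2R2A, of the subunit class that ENSA and ARPP19 inhibit, had a log2 change of -0.081 and made no call (limma adjusted p = 0.41). The catalytic subunit gene PPP2CA had a change of -0.088 and made no call (adjusted p = 0.078), but passed as lower in MII with each of the 3 alternative scalings and without MII library 1 (0.029). The other catalytic subunit gene, PPP2CB, named after its values were seen, rose by 0.49, with a mean of 10.95 FPKM in MII against 7.503 FPKM in GV (limma adjusted p = 0.0014).

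The m6A maps held 19 peaks in 8 of the 10 genes in MII and 15 peaks in 8 of the 10 in GV. Of the 9 tested members 7 had an MII peak and 8 a GV peak, where 73.8% of all tested genes had an MII peak and 54.1% a GV peak. Peaks at both stages were listed for 6 of the 9 tested members, against 49.1% of all tested genes: PDE3A, WEE2, CDC25A, CDC25C, ENSA and ARPP19. WEE1 and PKMYT1 had a peak in MII but not in GV, and GPR3 and CDC25B in GV but not in MII. An enrichment is the authors' log2 ratio of immunoprecipitated to input RNA, a single value per peak without a replicate spread. The whole lists differed in length and level, with 22298 peaks at a median of 1.67 in MII and 14222 peaks at a median of 2.62 in GV, so levels of the lists do not measure a difference between stages.

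**Figure D3:**
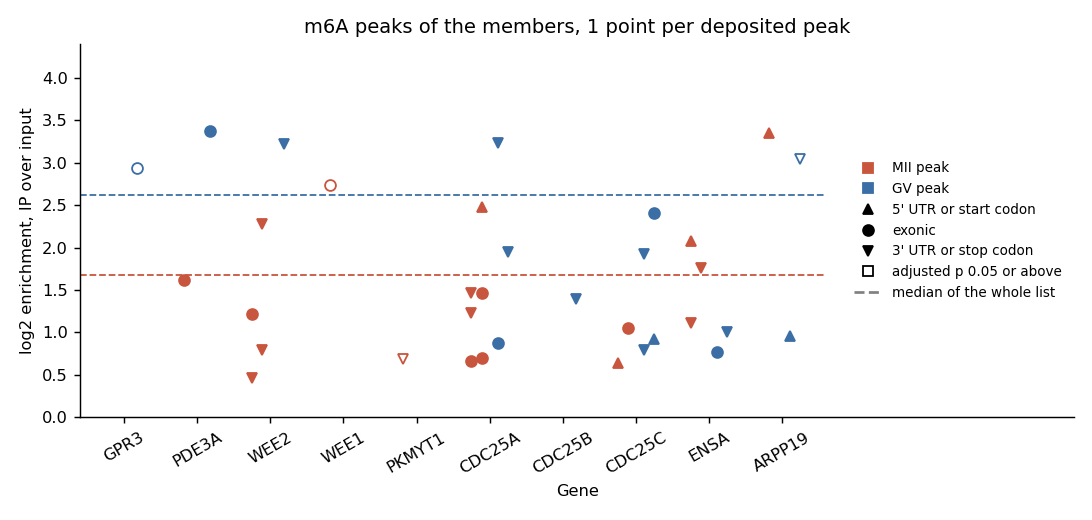
Deposited log2 enrichment of each peak of the 10 genes, MII left of GV, with the marker showing the annotated position and an open marker an adjusted p of 0.05 or above. Dashed lines are the medians of the whole lists, 1.67 in MII and 2.62 in GV, and 6 of 19 MII and 5 of 15 GV peaks lie above the median of their own list.

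WEE2 had 4 peaks in MII and 1 in GV. At the gene's 5' end an MII peak of 271 bp (chromosome 4, 104972275 to 104972545) had a log2 enrichment of 1.21, and no GV peak lay there. Over the stop codon both stages had a peak, with 2.28 in MII (104979380 to 104998720) and 3.22 in GV (104992546 to 104998989). Spans include introns, so the longer span does not measure methylated sequence.

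CDC25A had 6 peaks in MII and 3 in GV. Its 5' UTR peak (chromosome 22, 51693563 to 51693891) had an enrichment of 2.48 and was listed in MII but not in GV. In the 3' UTR a pair of peaks was found at both stages, with 1.46 and 1.23 in MII against 3.24 and 1.95 in GV for the peaks they overlapped. CDC25C had 2 peaks in MII and 4 in GV. A 5' UTR peak was listed at each stage, with 0.64 in MII and 0.93 in GV, and these did not overlap. Its exonic peak was at 1.06 in MII and 2.41 in GV, and its 3' UTR peaks (chromosome 7, 49701435 to 49701615 and 49701734 to 49701914) had 1.93 and 0.79 in GV, with no peak listed there in MII. CDC25B had a single peak, in the 3' UTR in GV (chromosome 13, 51395118 to 51395356), with 1.40. The 3 phosphatase genes thus all had a 3' UTR peak in GV, and CDC25A alone had one in MII.

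ENSA had 3 peaks in MII and 2 in GV. The peak over the start codon (chromosome 3, 20098776 to 20102037) had an enrichment of 2.07 in MII, against 0.77 for the exonic GV peak it overlapped. A further MII peak in the 3' UTR (20102696 to 20103385), with 1.76, overlapped no GV peak. ARPP19 had 1 peak in MII, in the 5' UTR (chromosome 10, 57819020 to 57828519), with 3.35, the highest enrichment of any member in MII and above 93.7% of that list. The GV peak there had 0.96 and was above 6.10% of its list. A 3' UTR peak of ARPP19 (57834267 to 57834416) was listed in GV, with 3.04 and an adjusted p of 0.051.

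PDE3A had a single peak at each stage, with nearly the same position at the 3' end of the gene (chromosome 5, 89133571 to 89142824 in MII and 89133571 to 89142913 in GV). Its enrichment was 1.62 in MII and 3.38 in GV, the highest of any member in GV. The annotation calls it exonic on a transcript that the expression table does not list for PDE3A, which also holds for some exonic peaks of CDC25A. Over the whole lists 90.3% of MII and 91.0% of GV peaks named a transcript of the expression table. The peaks of the low genes GPR3, with 2.94 in GV (adjusted p = 0.074), WEE1, with 2.73 in MII (0.27), and PKMYT1, with 0.69 in MII (0.15), did not pass the adjusted threshold.

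Overlap of at least 1 bp on the same strand was found for 10 of the 19 MII peaks (52.6%, exact 95% interval 28.9% to 75.6%) and for 9 of the 15 GV peaks (60.0%, 32.3% to 83.7%). Over all peaks the shares were 39.9% of the MII and 64.1% of the GV list. These intervals cover counting error only, and peaks of a gene are not independent.

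The authors' deposited table of differential peaks held 11 peaks in 6 of the 10 genes, all 6 among the 9 tested, and 42.5% of all tested genes had a row there. At an adjusted p under 0.05 the authors' deposited table had 8 of the 11 peaks higher and 3 lower in MII. Among its 8682 peaks, 63% were higher and 31% lower. By the authors' own rule, a log2 change of at least 1 in size and p under 0.05, the authors' deposited table called 6 higher and 0 lower among the 11, where it called 50.9% higher and 21.9% lower over all. The table lists p-values up to 0.049, so a peak missing from it is not shown to be unchanged.

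Differential peaks that began at or near a gene's 5' end were higher in MII. In the authors' deposited table the 5' UTR of CDC25A had a log2 change of 2.64 (51693652 to 51693862), the 5' UTR peak of ARPP19 1.54 and the start codon peak of ENSA 1.42. The peaks of ARPP19 and ENSA spanned 9500 and 3262 bp, introns included, so their changes are not confined to the 5' end. The authors' deposited table also gave 1.5 for the 211 bp at the 5' end of WEE2 (104972275 to 104972485). Peaks annotated to the 5' UTR or start codon were higher for 3 of 3 of these genes' peaks and for 82.2% of 1634 in the whole table, which is the direction of most peaks there.

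Towards the 3' end the signs were mixed. The authors' deposited table gave -0.38 for the stop codon peak of WEE2, -0.50 for a 3' UTR peak of CDC25A and -0.90 for the 3' peak of PDE3A, against 2.55 for the 3' UTR peak of ENSA (20102816 to 20103385). In the whole table, a share of 50.2% of 1441 peaks in the 3' UTR or over the stop codon were higher. Within WEE2 and CDC25A the deposited changes thus had opposite signs towards the ends of the same gene, and the difference between ends was not tested. Peaks were matched by gene, so the same transcript is not shown to carry both. The authors' deposited table gave 0.92 for an exonic peak in the middle of WEE2 and 1.55 for an exonic peak of CDC25A. For CDC25C the authors' deposited table gave 0.25 over an exonic peak of 20252 bp. The MII enrichment minus the GV enrichment of the overlapping peaks in the stage lists was -1.35. Those peaks spanned 24408 bp in MII and 4219 bp in GV, introns included, and the list medians were 1.67 and 2.62. The values are thus unlike measures, and their opposite signs cannot be set against each other.

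**Figure D4:**
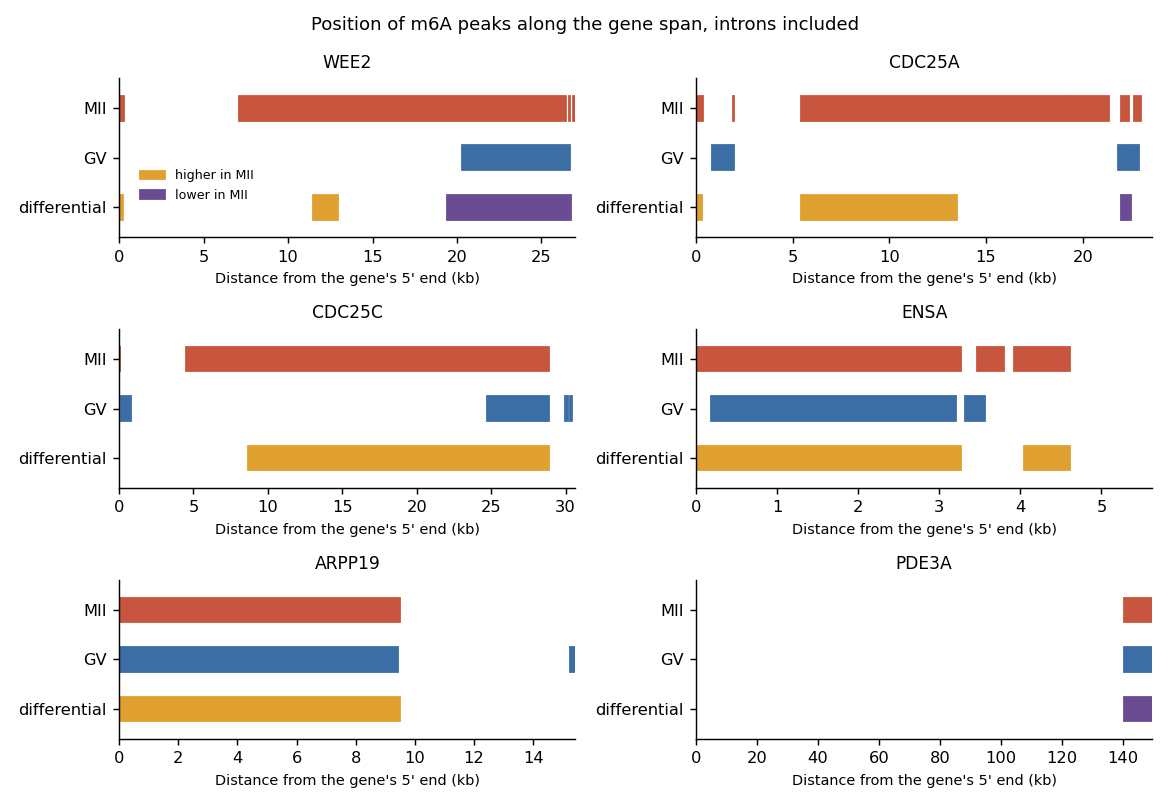
Peaks of 6 members along the gene span in kb from its 5' end, introns included, with MII above GV and the deposited differential peaks in the lowest row, orange for higher and purple for lower in MII. WEE2 and CDC25A have orange bars at the 5' end and purple bars at the 3' end, ENSA and ARPP19 have only orange bars, and PDE3A has 1 purple bar.

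Expression and peaks can be set side by side without a test. WEE2, with a log2 expression change of -0.33, and CDC25A, with 0.48, both had deposited differential peaks of either sign. ENSA and ARPP19, with expression changes of 0.63 and 0.56, had deposited peaks that were all higher, and PDE3A, with 0.085, had 1 that was lower. CDC25B, with 0.52, and GPR3, with 1.20, had a peak in GV and none in MII. The other pathway genes had peaks too. MASTL had 3 peaks in MII and 2 in GV, with the highest enrichment at 2.20 in MII and 4.39 in GV. CCNB1 had 2 in MII, up to 1.07, and 0 in GV, while GPR12 had 0 in MII and 1 in GV, at 3.70.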

How the data were processed

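RNA was bound to oligo(dT) beads, fragmented and immunoprecipitated, per the labels' protocols, so abundance is that of RNA the beads held. The submitters' processing notes name HOMER 4.10, edgeR 4.1, StringTie 2.1.2, HISAT2 2.0.4 and fastp 0.19.4 without their roles. Neither the peak caller, the genome build nor any pooling of libraries is stated (not given in the sources used here). FPKM values per gene and input library were used as the authors deposited them. Peak enrichments and changes are log2 values deposited by the authors, with their p-values and adjusted p-values. Peak starts count from 0 in the files (861 GV peaks begin 1 base before the gene's listed start and 0 exactly on it) and are printed counting from 1.

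The test of expression used R 4.3.3 and limma 3.58.1, 2-sided with a variance trend, on log2(FPKM + 1). Genes averaging 1 FPKM or more over the input libraries entered together, and only the rows of the genes named here are printed. The fit was tested on simulated data first. No count test was run, because FPKM is not a count and the files give no read counts. For the depth estimate 60001 spacings of low FPKM values of short RNAs, multiplied by length, were scanned. They were scanned on 77 to 110 values of each library, with a tolerance of 0.05. The scan covered only a range of spacings for single bases. Spacings for whole reads were not compared, and the range set bounds on the depth. The best spacing made 43.0% to 54.2% of values whole, where the typical (median) spacing made 13.3% to 15.4% whole. Choosing the best raises that share, so the depth is rough. Ratios, overlaps and exact tests were computed in Python 3.11.15 with SciPy 1.17.1.

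Members, gene lists, named genes and tests were chosen with earlier results of these data known. The rule named all members, 16 pathway genes chosen by role, and the largest rise and fall of each list. PPP2R2D, one of the 16, had no row by symbol and is not analysed here. GNAS had 2 rows, counted separately. The main test has no pairing of libraries. Alternatives were other pseudocounts (0.1 and 0.5), filters (none and 5 FPKM), scalings, a variance model without trend, a replicate block, each library left out, and other peak thresholds and overlaps. No gene of the expression table overlapped a member's span. No sequences were used.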

Additional observations from a re-analysis of the deposited data

How the results depend on the processing

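The 9 members tested stayed on their side of the threshold in 131 of 134 refits, and the 3 exceptions were those of PKMYT1, at log2 changes of -0.27 (median scaling), -0.32 (quantile normalization) and -0.28 (mitochondrial genes removed). The uncalled change of CDC25C turned negative with median scaling (-0.061), without mitochondrial genes (-0.070) and without MII library 1 (-0.0054). With the 3 scalings 2 members fell in place of 1. The scalings moved the median of all genes by -0.064 to -0.079. Leaving out each library in turn left 5 members higher and 1 lower each time. In the cyclic AMP list 3 to 5 genes rose and 3 to 5 fell when libraries were left out, and 3 fell in eBayes without trend. In the CDK1 list 6 to 9 genes rose and 3 to 4 fell without single libraries, and 6 rose with median scaling or without mitochondrial genes. In the Greatwall list 2 to 3 rose and 6 to 7 fell without single libraries, and 8 fell with each of the 3 scalings. The cause was not tested. Same-numbered libraries of the stages did not deviate together (correlations of -0.055, -0.060 and 0.013). With the replicate number as a block, 5 members rose and 1 fell, 9 genes of the CDK1 list rose, and PLK1 lost its call (0.15, adjusted p = 0.059), with no other call of a named gene changed. Of the named pathway genes, 265 of 282 refits kept the call.

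Above the median enrichment of their list the members had 6 MII and 5 GV peaks, and at an adjusted p under 0.05 they had 17 and 13. In the whole lists 18416 of 22298 MII peaks and 10791 of 14222 GV peaks had an adjusted p under 0.05. With a reciprocal overlap of 50% the share of MII peaks overlapping a GV peak was 26.3% and that of GV peaks 33.3%. Over all peaks these shares were 17.7% of the MII and 27.8% of the GV list. At an adjusted p under 0.01 the differential peaks were 7 higher and 3 lower. An overlap of exonic blocks was not run, because the files give no blocks. The estimated depth leaves GPR3 with the read equivalents given beside its values, and no such estimate was made for the other members. The fit at a mean of 5 FPKM leaves GPR3 out.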
